A study of Mus musculus with 60 samples.

Results

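The cytosolic ribosomal protein genes encode the protein part of the ribosome, apart from its ribosomal RNA. They were taken as every gene whose symbol in the deposited differential expression tables was Rpl, Rps or Rplp followed by the number of the protein, and Rps27l and the Rps6k kinases were left out. The rule found 77 genes, 47 of the large subunit and 30 of the small subunit, among 49315 genes in the count tables. All 77 passed the count filter of each comparison (75 or 76 with the stricter filterByExpr alternative), and 2 of them, Rpl3l and Rps4l, had almost no counts.

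RNA sequencing was carried out on whole blood of 60 male CD2F1 mice, bought at 5 to 6 weeks of age, in 10 groups of 6. The mice were given vehicle (water with methylcellulose and polyvinylpyrrolidone) or BIO 300, an oral powder of synthetic genistein, at 50, 100 or 200 mg/kg (labelled Low, Med and High Dose) in 12 oral doses over 6 days. Blood of all 4 treatments was drawn 24 h (Day 0) and 48 h (Day 1) past the final dose. A further 2 groups, vehicle and 200 mg/kg, received 9.2 Gy of total-body irradiation (TBI) on Day 0 and were sampled 24 h later, on Day 1. Blood is a mixture of cells, so fewer cells of a type and less RNA per cell cannot be told apart in these values. The libraries held between 15099415 and 45589415 gene counts.

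Ribosomal proteins are made in matched amounts by all nucleated cells, and reticulocytes and platelets still carry ribosomal protein mRNA after losing or never having a nucleus. Most of these mRNAs start with a run of pyrimidines, the 5′ terminal oligopyrimidine (TOP) motif, through which mTORC1 sets their translation. Red cell precursors are sensitive to a shortage of ribosomal proteins: mutations in RPS19, RPL5, RPL11, RPS24 and RPS26 cause Diamond-Blackfan anaemia.

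Pyrimidine runs were visible at the annotated start sites of several members. A RefSeq promoter window (GRCm38.p6, 250 bases before to 50 after the start) was at hand for 56 members. The letters CTTTCC were in the forward strand of 22 of the 56 windows (39.3%), against 16.0% of 27025 genes, and on either strand in 50.0% against 29.3%. The longer CTCTTTC, which overlaps it, was in the forward strand of 23.2% of the members' windows and 4.60% of all genes. CCGGAAG, the core that ETS factors bind, was on either strand in 39.3% of the members' windows and 9.93% of all. TATAAA was on either strand in 10.7% against 15.7%. The stretches below are shown because Rpl28, Rpl38 and Rpl35 lie at the upper end and Rps27 and Rpl13a at the lower end of the differences described further on, and capitals mark CTTTCC.
Rpl28, chr7:4792955-4792984, plus strand: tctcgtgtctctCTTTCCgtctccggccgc
Rpl38, chr11:114668568-114668597, plus strand: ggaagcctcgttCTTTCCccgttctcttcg
Rpl35, chr2:39005119-39005148, minus strand: gtcggccccgccCTTTCCtctttctctcga
Rps27, chr3:90213630-90213659, minus strand: ccgctttcgctcCTTTCCggcggtgacgac
Rpl13a, chr7:45128719-45128748, minus strand: caagacctcctcCTTTCCcaggcggctgcc
All 5 stretches lay at the transcription start, from 5 bases before it in Rpl35 to 10 bases after it in Rpl13a. In other members CTTTCC lay as near (4 bases after the start in Rpl18) or farther off. It was 17 bases before the start in Rpl4, 22 after it in Rpl10a and 44 after it in Rps19. Rplp0 (1.99) and Rpl22 (-0.58), the ends of the members with CTTTCC by log2 fold change at 200 mg/kg on Day 1, are not shown. The members with and without CTTTCC had like median log2 fold changes, 0.21 (22 members) and 0.20 (34 members) for 200 mg/kg against vehicle on Day 1, and -1.32 and -1.33 for TBI against no TBI in vehicle mice.

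The 77 genes were spread over 19 chromosomes, with 14 on chromosome 7 and 4 on chromosome X. Their coding lengths ran from 75 bases in Rpl41 to 1257 bases in Rpl4 (Rps4l has none annotated), and 28 of them held at least 1 snoRNA gene within their bounds. Across the 75 members other than Rpl3l and Rps4l, the log2 fold changes of 4 comparisons had Spearman correlations between -0.30 and 0.20 with coding length, exon number, GC content, and the number of pseudogenes and snoRNA genes. With the mean level over the 60 mice the correlations were larger, 0.46 for 200 mg/kg and 0.44 for 100 mg/kg on Day 1, 0.39 for TBI against vehicle Day 1 and -0.48 for 50 mg/kg on Day 0, and that mean includes the mice compared. These are descriptions across genes, which share the same libraries.

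Together the 77 genes took a small and variable share of the blood transcriptome. In vehicle mice on Day 0 the share of all gene counts was 0.937% in the lowest mouse, 1.18% at the median and 1.66% in the highest. It was 1.73%, 2.10% and 2.32% after 50 mg/kg on Day 0, so that these mice did not overlap with vehicle. The vehicle mice of Day 1 held 1.26%, 1.77% and 2.16%. After 100 mg/kg on Day 1 the values were 0.884%, 1.17% and 1.43%, and after 200 mg/kg 0.984%, 1.03% and 1.21%, below all vehicle mice of that day. On the TMM scale the order was another: the summed level was 10594 to 13510 CPM in vehicle Day 1 and 15235 to 24699 CPM after 200 mg/kg, without overlap and higher, and the medians of 50 mg/kg and vehicle on Day 0 were 11474 and 11568 CPM with overlapping ranges. The irradiated groups had the lowest shares, at 0.629%, 0.697% and 0.789% in vehicle mice and 0.584%, 0.656% and 0.872% in mice given 200 mg/kg, with all 12 irradiated mice below all 48 others.

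**Figure D1:**
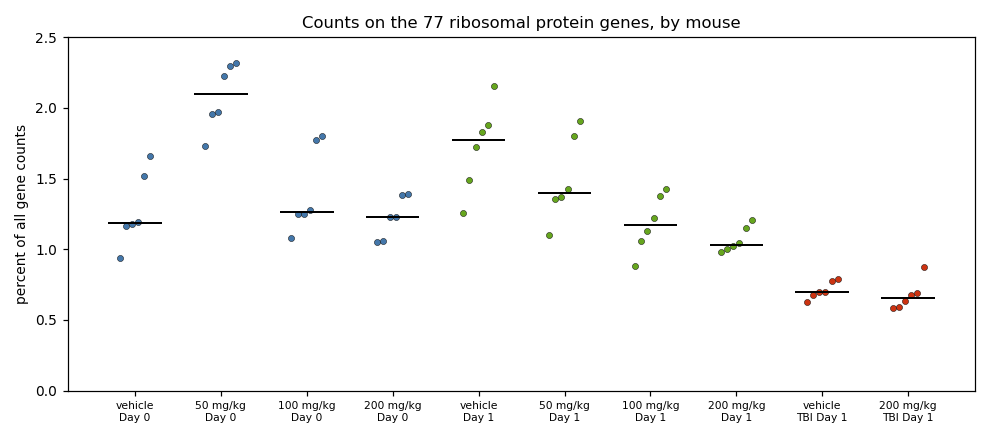
Percent of all gene counts that fell on the 77 ribosomal protein genes, one point per mouse, with the median of each group of 6 as a bar (blue Day 0, green Day 1, red irradiated). Mice given 50 mg/kg on Day 0 sit at 1.73% to 2.32% and irradiated mice at 0.584% to 0.872%.

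Levels per gene are given as CPM, counts scaled to a common library size over the 60 libraries with TMM factors, which assume that most genes do not change. Per kilobase of the principal transcript, Rpl41, a very small basic protein at the interface of the subunits, had the highest median over the 60 mice, 1354 CPM per kb, followed by Rplp1 at 947. Rpl29 and Rpl22 were the lowest of the 75 well-counted members, at 12.0 and 13.8. In each of the 10 groups Rplp1 was among the 3 highest, joined by Rpl41 in all but the 50 mg/kg group of Day 0, where Rps27, at 854 CPM per kb, and Rps15, at 553, stood beside it. Rplp0 replaced Rps27 among the 3 highest in the Day 1 groups given 100 or 200 mg/kg and in both irradiated groups, and Rpl22 replaced Rpl29 as the lowest well-counted member in the same 4 groups.

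Most of the members were lower after irradiation. In vehicle mice, 24 h after TBI, 51 of 77 members (66.2%) were called lower than in vehicle mice of Day 1, with an adjusted p under 0.05 and a log2 fold change beyond 1 in edgeR, and 1 was called higher. The latter was Rpl3l, with almost no counts (means of 0.58 CPM after TBI and 0.29 CPM in vehicle Day 1, log2 fold change 1.02, adjusted p = 0.039). Of all 25146 genes tested, 36.0% were called, 16.4% lower and 19.6% higher. The median log2 fold change of the members was -1.31, and that of all genes was 0.09. By adjusted p alone 62 members were lower, against 22.4% of all genes, and the 6 irradiated mice lay below the 6 vehicle mice without overlap for 55 members, against 14.9% of all genes.

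Several of the members that fell most bind RNA outside the ribosome or are tied to marrow failure. Rpl22, an RNA-binding protein needed for alpha-beta T cell development, was at 31.1, 37.4 and 46.7 CPM (lowest, median and highest mouse) in vehicle Day 1 and at 5.90, 8.46 and 15.5 CPM after TBI. Its log2 fold change was -2.09 (SE 0.22, adjusted p = 1.6e-05), and the groups did not overlap. Rps27, a zinc-finger protein of the small subunit, went from 190, 257 and 318 CPM to 44.9, 64.2 and 87.2 CPM, a log2 fold change of -1.98 (SE 0.20, adjusted p = 1.6e-05). The irradiated mice lay far below the vehicle range. Rpl14 had a log2 fold change of -1.93 (SE 0.25, adjusted p = 6.4e-05). Rpl5 and Rpl11, which join the 5S RNA and in free form bind Mdm2, the regulator of p53, fell by 1.93 and 1.61 on the log2 scale. Rps3, at the mRNA entry channel, fell by 1.75 and Rps4x, the X-linked small subunit protein, by 1.71. Rps24, Rps25, Rps6 (the S6 kinase target), Rps27a (made as a fusion with ubiquitin), Rpl3 (near the catalytic centre), Rps26 and Rps14 were also called lower, with log2 fold changes from -1.58 to -1.05.

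The genes of the ribosomal stalk and a few others were not called. Rplp0, the base of the stalk that receives the elongation factors, was at 459, 529 and 605 CPM in vehicle Day 1 and 200, 606 and 1439 CPM after TBI. The irradiated mice thus spanned the vehicle range on both sides, with a log2 fold change of 0.32 (SE 0.36, adjusted p = 0.47). Rpl41 was at 404, 486 and 583 CPM and then at 210, 840 and 1772 CPM, a log2 fold change of 0.81 (SE 0.40, adjusted p = 0.11). Values for Rplp1, Rps29 and Rplp2 were 0.12, 0.17 and -0.32, none of them called. Rps19 had a log2 fold change of -0.49 (SE 0.19, adjusted p = 0.045), short of the fold required for a call, with 142, 164 and 207 CPM before and 88.0, 111 and 163 CPM after irradiation. Rpl10 (joined last to the large subunit, -0.33), Rpl38 (-0.59) and Rpl39 (at the exit tunnel, -0.88) were not called either.

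Against the vehicle mice of Day 0, the time of irradiation, 38 members (49.4%) were called lower and none higher, where 26.9% of 24751 genes were called and 11.8% were lower. The median of the members was -0.99 and that of all genes 0.18, and the same irradiated mice enter both comparisons. The lowest members were Rpl14 at -1.61, Rpl22 at -1.58 and Rps27 at -1.55, and the highest of the well-counted ones were Rpl41 at 0.59, Rplp0 at 0.26 and Rps29 at 0.10.

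Cell type markers moved in both comparisons. Against vehicle Day 1, all 8 B cell markers and all 8 T cell markers were called lower in irradiated vehicle mice, with median log2 fold changes of -3.49 and -2.43, and all 8 neutrophil and all 7 platelet markers were called higher, with medians of 2.78 and 2.59. The summed B cell markers were at 754 to 1198 CPM in vehicle Day 1 and 44.5 to 123 CPM after TBI, and the neutrophil markers at 434 to 706 CPM and 1183 to 6671 CPM. Against vehicle Day 0 the same B cell, T cell, neutrophil and platelet markers were called in the same directions, with medians of -3.30, -2.03, 2.70 and 2.20, and 2 of 9 reticulocyte markers were lower. Against vehicle Day 1, of 6 monocyte markers 2 were called higher and 1 lower, of 9 reticulocyte markers none, and of 10 hepatocyte markers 1 higher. No B cell, T cell, neutrophil or platelet marker was at 0 over a whole group. The part of these cells in the fall of the members was not tested.

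**Figure D2:**
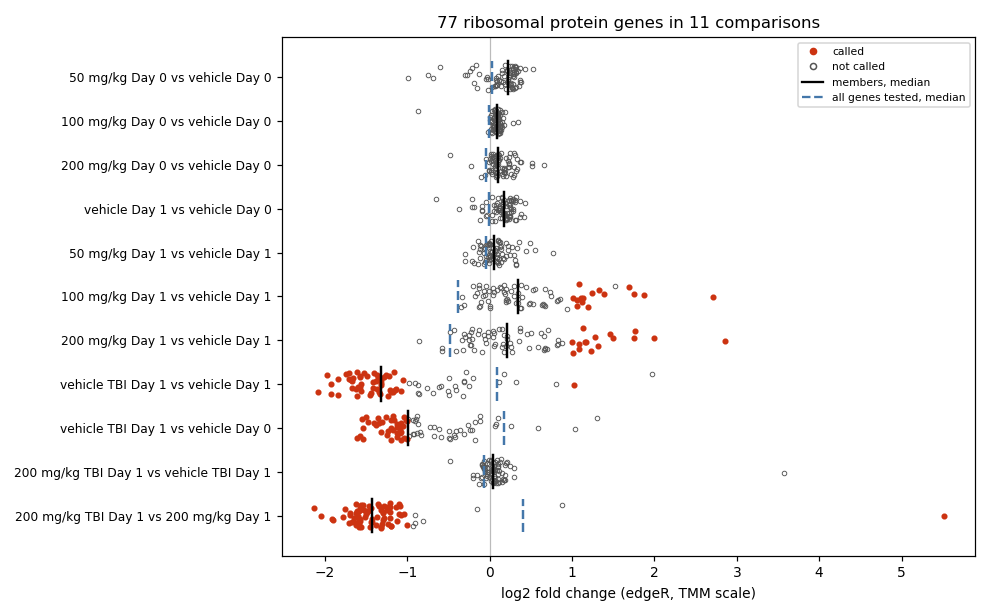
Log2 fold changes (horizontal axis) of the 77 genes in 11 comparisons, one point per gene, filled where called (adjusted p under 0.05 and beyond 1 in log2 fold change), with the median of the members (solid) and of all genes tested (dashed). Most members lie left of the dashed line in the 3 comparisons of irradiated with unirradiated mice and mostly right of it in the Day 1 comparisons of 100 and 200 mg/kg.

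In unirradiated mice on Day 1 the members spread apart after 100 and 200 mg/kg. At 100 mg/kg 15 members (19.5%) were called higher than vehicle and none lower, and at 200 mg/kg 16 (20.8%) and none. The share called higher was near that of all genes, 18.2% of 23699 genes and 17.3% of 23513 genes, whereas 30.6% and 30.5% of all genes were called lower (48.8% and 47.8% in either direction). By adjusted p alone 41 members were higher and none lower at 100 mg/kg, against 25.0% and 40.6% of all genes, and 33 were higher and 5 lower at 200 mg/kg, against 23.6% and 39.9%. The dosed mice lay above vehicle without overlap for 29 and 23 members, against 17.9% and 17.4% of all genes, and below it for none, against 28.3% at both doses. The medians of the members were 0.35 and 0.21, and those of all genes -0.38 and -0.48. Both comparisons use the same vehicle mice.

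These directions depended on the scaling of the libraries. The TMM factors were at a median of 0.558 and 0.538 in the 100 and 200 mg/kg groups and 1.45 in vehicle Day 1. When total counts replaced TMM, the median of all genes moved to -1.76 and -1.96, and 44 and 49 members were then called lower and 1 higher. Under that scaling 15715 of 23699 genes at 100 mg/kg and 16119 of 23513 genes at 200 mg/kg were called in either direction. Relative to the median of all genes, the median of the members was higher by 0.73 (100 mg/kg) and 0.69 (200 mg/kg) with TMM, and by 0.69 and 0.62 with total counts. Relative to all genes, the irradiated vehicle mice were lower than vehicle Day 1 by 1.40 with TMM and 1.43 with total counts (differences of -1.40 and -1.43). A change of scaling shifts all genes nearly alike, so these differences had to be close and are no test of the result. The median of all genes also moved with the count filter. With TMM it was -0.18 under filterByExpr and -0.55 without a filter at 100 mg/kg, and -0.25 and -0.70 at 200 mg/kg.

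**Figure D3:**
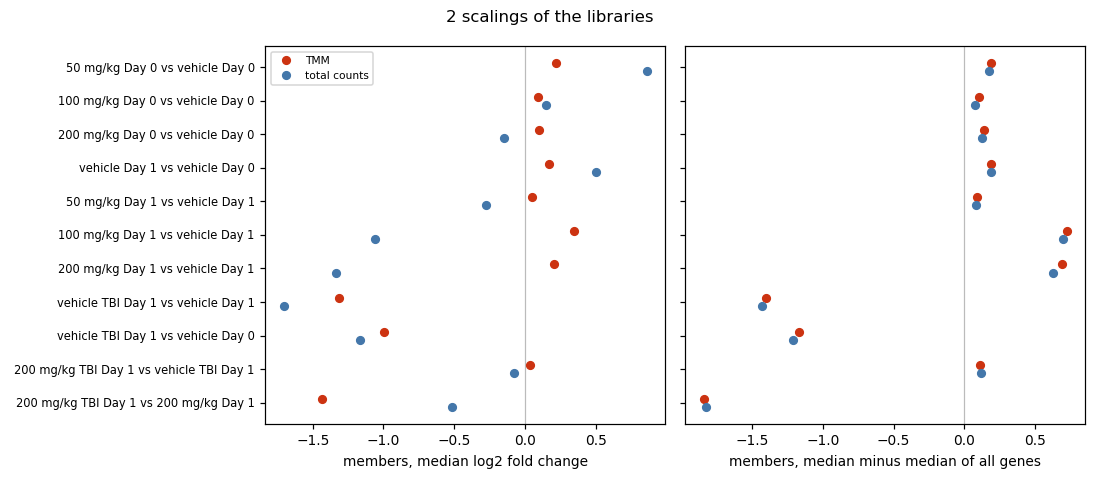
Median log2 fold change of the 77 genes in 11 comparisons with TMM scaling (red) and total counts (blue), as fitted on the left and minus the median of all genes tested on the right. The medians as fitted differ in sign between the scalings for 100 and 200 mg/kg on Day 1 (0.35 against -1.06 and 0.21 against -1.33), and the medians relative to all genes differ by less than 0.1 in all 11. A change of scaling shifts all genes nearly alike, so the closeness on the right follows from the method.

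The largest difference was in Rpl41. It was at 404, 486 and 583 CPM in vehicle Day 1, 2818, 2950 and 3633 CPM after 100 mg/kg, and 1971, 3492 and 5063 CPM after 200 mg/kg. Neither dosed group overlapped with vehicle, and the log2 fold changes were 2.71 (SE 0.16, adjusted p = 1.6e-08) and 2.86 (SE 0.23, adjusted p = 9.9e-08). Rpl41 was the single member called higher with total counts as well.

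The stalk genes were also called higher. Rplp0 rose from 459, 529 and 605 CPM to 1384, 1856 and 2383 CPM after 100 mg/kg and to 1398, 1863 and 2855 CPM after 200 mg/kg, with log2 fold changes of 1.88 (SE 0.15, adjusted p = 1.7e-07) and 1.99 (SE 0.19, adjusted p = 4.2e-07). Rplp1, which binds to it as a dimer with Rplp2, rose from 344, 386 and 456 CPM to 1145, 1266 and 1402 CPM and 813, 1274 and 1629 CPM, or by 1.75 on the log2 scale at both doses. None of the dosed mice overlapped with vehicle for either gene. Rplp2 had log2 fold changes of 1.39 and 1.49, and with total counts of -0.02 and -0.07.

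Rps29, a zinc-binding small subunit protein, rose from 125, 141 and 166 CPM to 381, 454 and 501 CPM and to 260, 494 and 625 CPM, by 1.68 and 1.77 on the log2 scale. Rpl28 was called higher with 1.12 and 1.32, Rpl38, needed for translation of Hox mRNAs, with 1.11 and 1.15, and Rpl35 with 1.06 and 1.08. With total counts Rpl38 was at -0.31 and -0.41. Also called higher at both doses were Rps2, Rps12, Rpl13, Rpl37a, Rps9 and Rpl39, with log2 fold changes from 1.003 to 1.46, and Rpl10 was called at 200 mg/kg only (0.93 at 100 mg/kg and 1.01 at 200 mg/kg, the difference between doses not being tested).

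At the other end stood Rpl22, Rpl14, Rps27, Rps3 and Rpl13a, the 5 members lower by adjusted p at 200 mg/kg. Rpl22 was at 24.2, 27.7 and 40.0 CPM after 100 mg/kg and 18.3, 22.2 and 38.3 CPM after 200 mg/kg, overlapping with the 31.1 to 46.7 CPM of vehicle. Its log2 fold changes were -0.31 (SE 0.14, adjusted p = 0.068) and -0.58 (SE 0.17, adjusted p = 0.009). Rpl14 was at -0.35 and -0.58, Rps27 at -0.13 and -0.48, and Rps3 at -0.20 and -0.43, none of them called. Rpl5, Rpl11, Rps19, Rps26 and Rps6 had log2 fold changes between -0.25 and 0.14 at the 2 doses.

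**Figure D4:**
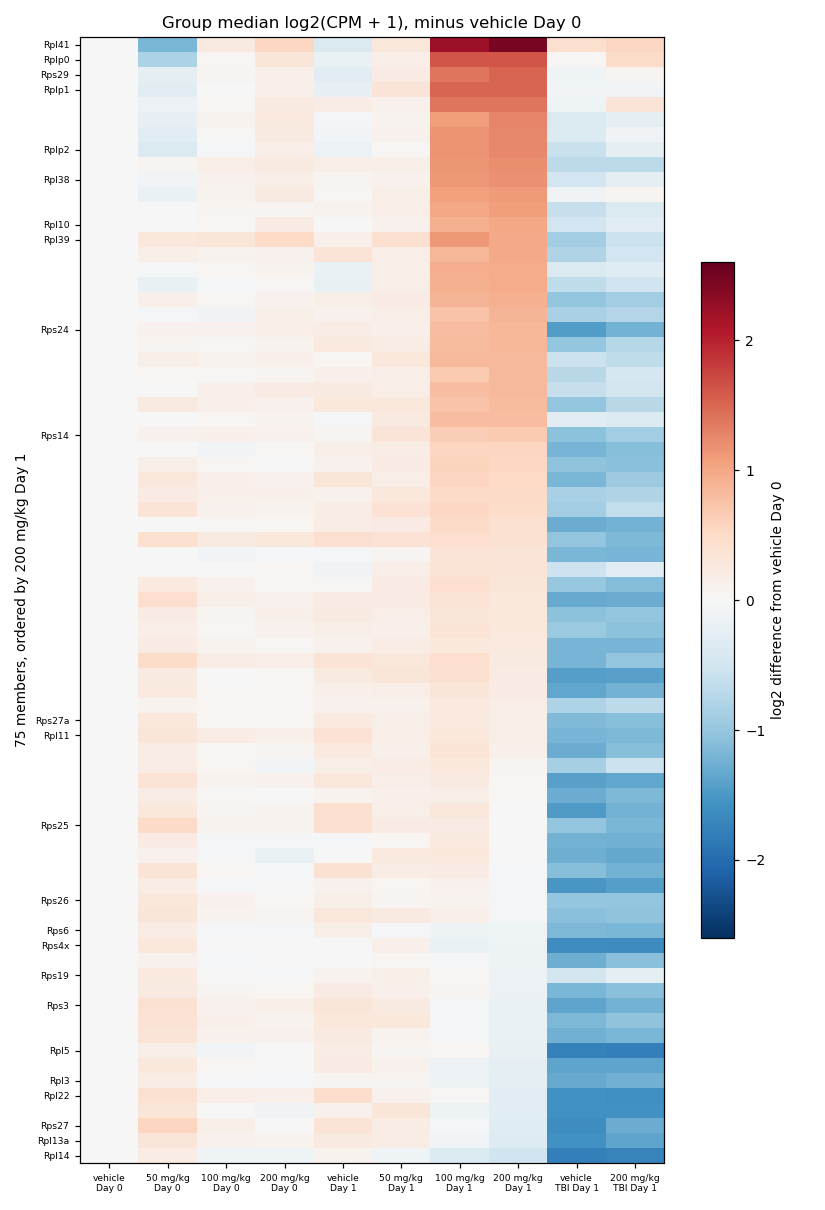
Group median of log2(CPM + 1) minus that of vehicle Day 0, for 75 members (rows, ordered by 200 mg/kg Day 1, with names for members of a listed role and for those at either end) in the 10 groups (columns). Rpl41, Rplp0, Rps29 and Rplp1 head the order and Rpl14, Rpl13a and Rps27 end it, and the irradiated columns are darkest blue at the lower end.

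Markers of platelets and reticulocytes moved with the members that rose. All 7 platelet markers were called higher at both doses, with median log2 fold changes of 2.92 and 3.07, and 7 and 9 of the 9 reticulocyte markers, with medians of 1.63 and 1.81. The summed platelet markers were at 1892 to 3812 CPM in vehicle Day 1, 14222 to 32060 CPM after 100 mg/kg and 13578 to 23773 CPM after 200 mg/kg. All 8 B cell and all 8 T cell markers were called lower at both doses, with medians from -1.39 to -1.85. Whether these cells account for the spread among the members was not tested.

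Shares within the ribosomal protein counts do not depend on the scaling of libraries. Rpl41 took 3.06%, 4.22% and 5.04% (lowest, median and highest mouse) of the counts of all 77 genes in vehicle Day 1, 12.4%, 15.2% and 16.7% after 100 mg/kg and 12.0%, 16.7% and 20.5% after 200 mg/kg. In irradiated vehicle mice it took 4.12%, 12.2% and 16.9%, and in irradiated mice given 200 mg/kg 6.93%, 11.9% and 15.0%. The order was the opposite after 50 mg/kg on Day 0, where it took 2.18%, 2.45% and 4.54% against 4.35%, 5.25% and 8.01% in vehicle Day 0, with 5 of these 6 mice below the vehicle range.

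Rpl41, Rplp0, Rplp1 and Rplp2 together took a median of 14.2% of the members' counts in vehicle Day 1, 33.8% and 34.9% after 100 and 200 mg/kg, and 31.0% and 31.3% in the irradiated groups. They are all large subunit genes, and the ratio of large to small subunit counts went with them. It was 1.36 to 1.56 in vehicle Day 1, 2.03 to 2.47 after 100 mg/kg, 2.02 to 2.95 after 200 mg/kg, and 1.61 to 2.94 in irradiated vehicle mice. Without these 4 genes the ratio was 1.10 to 1.16 in vehicle Day 1, 1.16 to 1.24 after 100 mg/kg and 1.19 to 1.28 after 200 mg/kg. Rps27 moved the other way, from 1.74%, 2.14% and 2.40% of the members' counts in vehicle Day 1 to 0.871%, 0.951% and 1.36% after 100 mg/kg and 0.481%, 0.854% and 1.23% after 200 mg/kg, with no overlap. Shares of a sum are tied, so a rise of these 4 genes lowers the shares of the others. In the fits Rps27 was not called lower at 100 or 200 mg/kg.

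**Figure D5:**
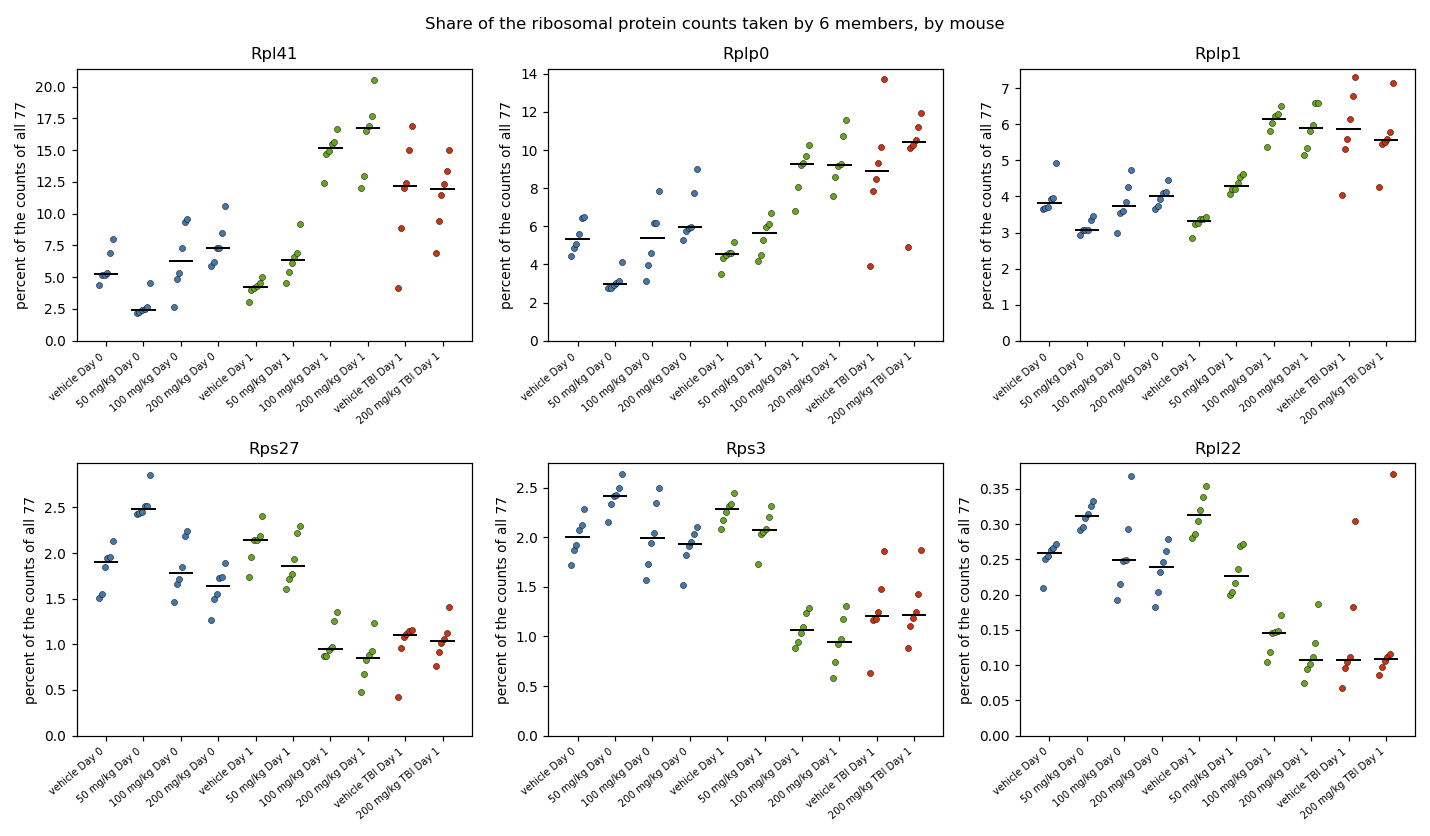
Share of the counts of all 77 genes (percent) taken by Rpl41, Rplp0, Rplp1, Rps27, Rps3 and Rpl22, one point per mouse and a bar at the median of each group of 6. Rpl41 is at 12.0% to 20.5% in the Day 1 groups given 100 or 200 mg/kg and at 3.06% to 5.04% in vehicle Day 1, and the lower row shows shares that fall in the same groups. Shares of a sum are tied, so a rise of some members lowers the shares of the others.

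In the remaining unirradiated comparisons no member was called. At 50 mg/kg on Day 0, where 4.5% of 24485 genes were called (4.38% lower), 6 members were higher and 2 lower by adjusted p alone (4.21% and 9.87% of all genes), and 39 had an unadjusted p under 0.05. Counts of unadjusted p-values, here and below, have no share of all genes beside them and are not read as differences of the members. No member was without overlap between the groups (2.85% of all genes were so and higher). Rpl41 was at 492, 627 and 815 CPM in vehicle and 214, 273 and 564 CPM after 50 mg/kg, and the ranges overlapped through 1 mouse. Its log2 fold change was -0.99 (SE 0.22, adjusted p = 0.011), and Rplp0 had -0.75 (SE 0.17, adjusted p = 0.011). Rps27 was at 148, 199 and 256 CPM and then 237, 294 and 323 CPM, a log2 fold change of 0.52 (SE 0.14, adjusted p = 0.026), and Rps25 and Rpl22 had 0.42 and 0.36. Rpl41 was called lower under 4 of 8 alternatives, and when any 1 of 5 of the 12 mice was left out (2 and 6 of the dosed and 13, 14 and 16 of the vehicle mice). With total counts 7 members were called higher and the median of the members was 0.86, where that of all genes was 0.69. Under that scaling 2870 of 24485 genes were called in either direction. In this comparison 4 of 7 platelet and 5 of 9 reticulocyte markers were called lower, and the part of these cells was not tested.

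At 100 and 200 mg/kg on Day 0 no gene of 24000 and 23795 was called (0.0%), and 0 and 10 members had an unadjusted p under 0.05. DESeq2 called none of the members either, and at 100 mg/kg no member was without overlap (0.0625% of all genes were so and higher). The medians were 0.09 and 0.10 (0.15 and -0.15 with total counts), and Rpl41 was the highest well-counted member in both, at 0.35 (SE 0.35) and 0.66 (SE 0.23, adjusted p = 0.55). Between the vehicle mice of Day 1 and Day 0 the median was 0.17, with 19 unadjusted p-values under 0.05 and Rpl22 among the highest at 0.42. After 50 mg/kg on Day 1 the median was 0.05 (-0.27 with total counts), with 14 such members, and Rpl41 (0.77, SE 0.18, adjusted p = 0.089) and Rplp1 (0.55, SE 0.11, adjusted p = 0.084) led. Their dosed mice did not overlap with vehicle, which was so for 3 members and 0.56% of all genes. No gene was called in these 2 comparisons by edgeR (0.0%), DESeq2 called no member, and by adjusted p alone 0.00829% of all genes were higher after 50 mg/kg and none of them was a member.

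Giving BIO 300 before irradiation went with no call among the members. Between irradiated mice given 200 mg/kg and irradiated vehicle mice no gene of 24916 was called (0.0%), none of the members was called by edgeR or DESeq2, and 1 member had an unadjusted p under 0.05. The median of the members was 0.04, and -0.08 with total counts. Rpl41 was at 446, 909 and 1285 CPM against 210, 840 and 1772 CPM, a log2 fold change of -0.06 (SE 0.45), and Rpl22 at 5.95, 8.38 and 23.8 CPM against 5.90, 8.46 and 15.5 CPM, 0.18 (SE 0.37). The ranges overlapped for both genes. The standard errors were smaller for Rps24 (-0.02, SE 0.21) and Rps3 (0.13, SE 0.17).

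Within the mice given 200 mg/kg, irradiation went with lower levels of nearly every member. Called lower were 70 of 77 (90.9%), against 5.73% of 23610 genes (20.6% in either direction), and the median was -1.43 where that of all genes was 0.41. Rps24, a Diamond-Blackfan anaemia gene, went from 480, 729 and 775 CPM to 124, 168 and 178 CPM, a log2 fold change of -2.14 (SE 0.17, adjusted p = 2.3e-05). Rpl41 went from 1971, 3492 and 5063 CPM to 446, 909 and 1285 CPM, -2.04 (SE 0.35, adjusted p = 0.00096), with no overlap. Rps19 was at 126, 138 and 185 CPM and 97.5, 130 and 174 CPM and had the smallest difference of the well-counted members, -0.15 (SE 0.16, adjusted p = 0.48). With total counts 3 members were called lower in place of 70, where 9323 of 23610 genes were called in either direction. The median of the members was then -0.51 and that of all genes 1.31. The difference between the medians was -1.83 against -1.84 with TMM, close because a change of scaling shifts all genes nearly alike. In this comparison 7 of 9 reticulocyte markers (median -1.67), all 8 B cell markers (-2.29) and 2 of 8 T cell markers were called lower, 7 of 8 neutrophil markers (2.25) and 2 of 6 monocyte markers higher, and no platelet marker was called. The part of these cells was not tested.

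The differences between these effects were tested as interactions. The effect of 200 mg/kg was smaller in irradiated than in unirradiated Day 1 mice for 8 members (10.4%), near the 10.0% of all genes called lower. It was larger for 1, Rpl3l, of which animal 57 held 1620 counts and no other mouse over 24. In either direction 29.6% of 26875 genes were called. Rpl41 had an interaction of -2.70 (SE 0.51, adjusted p = 0.0005), Rplp0 of -1.68 (SE 0.45, adjusted p = 0.0067) and Rplp1 of -1.59 (SE 0.35, adjusted p = 0.0016). Between Day 1 and Day 0 the effect of BIO 300 differed for 2 members at 50 mg/kg (2.6%), 9 at 100 mg/kg (11.7%) and 8 at 200 mg/kg (10.4%), all higher on Day 1. Of all genes 7.69%, 42.0% and 36.7% were called, but in either direction, so the shares of members and genes are not like for like. Rpl41 led at 1.77 (SE 0.29) and 2.23 (SE 0.33) at 50 and 200 mg/kg, and was at 2.37 (SE 0.39) at 100 mg/kg. With total counts the majority of calls turned in all 4 interactions.

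Paralogues with restricted expression were at the edge of detection. Rpl3l, the striated-muscle form of Rpl3, had a median of 6 counts per mouse and was at 0 in 6 mice, where Rpl3 had a median of 2175. A single irradiated mouse given 200 mg/kg (animal 57) held 1620 counts and the next mouse 24. Rpl3l was called higher in irradiated than unirradiated 200 mg/kg mice with a log2 fold change of 5.51 (SE 1.48, adjusted p = 0.015), which became 2.31 (adjusted p = 0.032) without the mice over 1000 CPM of the liver gene Alb, animal 57 among them. Against irradiated vehicle mice it was at 3.58 and not called, and at 0.13 without those mice. The same mouse held 16042 counts of Ckm and 5142 of Acta1, where no other mouse held more than 295 and 417, and a sum of 416 CPM over 7 muscle genes chosen after Rpl3l was seen. Animal 16, a vehicle mouse of Day 0, had a muscle sum of 118 CPM and more counts than animal 57 of Myh4 (497 against 171), Atp2a1 (356 against 169), Mylpf (139 against 83) and Tnnt3 (105 against 43), with 7 counts of Rpl3l. Animal 57 also held 294108 counts of Alb, and the part of tissue other than blood in this value was not tested.

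Rps4l, annotated as a transcribed processed pseudogene of the Rps4x family, had a median of 4.5 counts. The 3 mice with the most were animal 51 (irradiated vehicle, 114 counts), animal 57 (103) and animal 37 (100 mg/kg Day 1, 44), and these 3 mice held 569889, 294108 and 51033 counts of Alb against a median of 2 over all mice. Its log2 fold change after TBI in vehicle mice was 1.96 (adjusted p = 0.087), and -0.39 without the mice over 1000 CPM of Alb. Counts for 270 annotated pseudogenes named after members came to 0.673% to 1.40% of the members' and pseudogenes' sum, and Rpl3-ps1 held 28.2% of them. Near-identical pseudogenes can take or lose reads of their parent where only unique hits are counted, so the levels of members with such copies, Rpl3 and Rps2 among them, are uncertain to that extent.

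Genes that work beside these proteins were read from 6 further lists. After TBI in vehicle mice, 4 of 9 other ribosomal protein genes were called lower, Rpsa (the laminin receptor of the small subunit, -2.02), Rps27rt, Rpl22l1 and Rpl36al. Among 8 elongation factor genes 4 were called lower, Eef1g (-1.30), Eef1b2 (-1.24), Eef1e1 (-1.23) and Eef1a1 (-1.21), and among 28 initiation factor genes 5 were lower, led by Eif3e (-1.53), and Eif1 was higher (1.35). In ribosome biogenesis 22 of 30 genes were called lower, with a median of -1.27, among them Nop56 (-1.83) and Fbl (-1.72) of the box C/D particles. Other TOP mRNA genes had 4 of 11 lower, led by Npm1 (-1.78), and the mitochondrial ribosomal protein genes 15 of 78 lower and 2 higher, with a median of -0.55, where 16.4% of all genes were lower, so that this share and that of the initiation factors were near the background.

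After 100 and 200 mg/kg on Day 1 the lists were read against 18.2% and 17.3% of all genes called higher and 30.6% and 30.5% lower, with TMM and not with total counts. Ribosome biogenesis genes were called lower for 12 and 13 of 30, with medians of -0.90 and -0.99, led by Mdn1 at -1.88 and -1.997. Tpt1, another TOP mRNA gene, was higher by 2.06 and 2.24 on the log2 scale, Eif1 by 1.99 and 2.05 and Eif4e, the cap-binding protein, by 1.55 and 1.51. Of 28 initiation factors 5 were called higher at each dose, a share near the background, and none lower. The mitochondrial ribosomal proteins had 8 and 18 of 78 called lower, below the background at both doses, and 4 and 3 higher. At 50 mg/kg on Day 0, Eif5 (-1.46) and Pabpc1 (-1.58) were called. No other gene of these lists was called in the remaining comparisons of unirradiated mice or between irradiated groups. The lists are not described here for irradiated against unirradiated mice given 200 mg/kg, or for the interactions. The falls of these lists after TBI, ribosome biogenesis included, are therefore stated for vehicle mice only.

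The pattern of the members over the 10 groups was close to that of a few other genes. Over the 10 group medians of log2(CPM + 1), the mean of the members had Pearson correlations of 0.995 with Smc5, 0.994 with Eef1b2, 0.988 with Gm15772, and 0.987 with Topbp1 and Cep57, the 5 highest of 6661 genes with a mean of at least 10 CPM. These are descriptions over 10 points from shared libraries. Among the members Rpl41 (0.295) and Rplp0 (0.335) were least like the mean.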

How the data were processed

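Whole-blood RNA of 60 mice was sequenced on the NextSeq 500. Reads were trimmed by the authors (Trimmomatic), mapped to GRCm38 (STAR), and unique hits per gene were counted (Subread). The deposited files hold these raw counts per gene, and they also hold the authors' own fold changes and p-values, which were not used beyond their gene symbols. The annotation release and strand setting are not given in the sources used here, and the labels name polyA selection where the methods name a ribosomal and globin RNA depletion kit. Genes with at least 10 summed counts in a comparison were tested across the whole table with edgeR 4.0.16 (quasi-likelihood, TMM, 2 groups of 6 per fit, 4 groups for interactions) and Benjamini-Hochberg adjustment, and the fits were tested on simulated data. A call needs an adjusted p under 0.05 and a log2 fold change beyond 1. Named members are those listed for a known role, tissue-restricted paralogues with their parents, the 3 highest and 3 lowest of each comparison (where 1 group averaged 10 CPM or more), and the 3 highest and lowest per kilobase in each group. Rps2, Rps9, Rps12, Rps15, Rpl13, Rpl13a, Rpl28, Rpl35 and Rpl37a are also named where they were called or stood at an end, some of them after their values were seen. Some genes are not reported here. The members and lists were chosen with earlier results of these data known. DESeq2 1.42.0, other scalings and filters, and leaving out each mouse were alternatives. Replicates are separate mice.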

Additional observations from a re-analysis of the deposited data

Results flagged for a closer look

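Among 15 quantities in 10 groups, 150 in all, 23 groups held a mouse whose gap to its nearest neighbour was large for the range of its group. Chance gives about 1 in 20 for independent values of a normal distribution. The 15 quantities come from the same mice and are linked, and Rpl3l and Rps4l had almost no counts, so the 23 are not read as an excess over chance. In the 200 mg/kg Day 0 group, animal 22 was highest for Rpl41 (1716 CPM), Rplp0 (1458 CPM), Rplp1 (720.0 CPM), Rplp2 (524 CPM) and Rps29 (300.6 CPM), and animal 21 stood apart for Rps3 (215 CPM) and Rps19 (124 CPM). Animal 57, irradiated after 200 mg/kg, stood apart for the share of counts (0.872%), Rpl22 (23.8 CPM), Rpl14 (50.2 CPM), Rpl3l (31.0 CPM) and Rps4l (1.97 CPM), and animal 55 of its group for Rps24 (124 CPM). Animal 2 of the 50 mg/kg Day 0 group stood apart for Rpl41 (564 CPM) and for the ratio of large to small subunit counts (1.41).

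Rpl22 was apart in animal 40 (100 mg/kg Day 1, 40.0 CPM), animal 46 (200 mg/kg Day 1, 38.3 CPM) and animal 51 (irradiated vehicle, 15.5 CPM). Rps4l was apart in animal 17 (vehicle Day 0, 0.884 CPM), animal 37 (100 mg/kg Day 1, 1.54 CPM) and animal 51 (3.21 CPM), Rpl3l in animal 43 (200 mg/kg Day 1, 0.404 CPM), and Rplp2 in animal 28 (vehicle Day 1, 300.4 CPM).

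The effect of BIO 300 differed between Day 1 and Day 0 by the interaction test. On the log2 scale the difference at 50 mg/kg was 1.77 for Rpl41 and 1.19 for Rplp0. At 100 mg/kg it was 2.37 for Rpl41, 1.77 for Rplp0, 1.69 for Rplp1, 1.28 for Rplp2 and 1.51 for Rps29, and at 200 mg/kg 2.23, 1.504, 1.55, 1.16 and 1.49 for the same genes. The effect of 200 mg/kg differed between irradiated and unirradiated mice by -2.70 for Rpl41, -1.68 for Rplp0, -1.59 for Rplp1, -1.24 for Rplp2, -1.49 for Rps29 and 4.71 for Rpl3l.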

How the results depend on the processing

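No paired analysis was possible because the replicate numbers are animal numbers that no groups share. Scaling by total counts in place of TMM turned the majority of calls for 100 mg/kg (45 members called) and 200 mg/kg (50) on Day 1 and for the interactions at 50 mg/kg (55), 100 mg/kg (51), 200 mg/kg (43) and with irradiation (48). It gave 7 calls at 50 mg/kg on Day 0 and 4 between irradiated and unirradiated 200 mg/kg mice. Of all genes it called 10577 of 26323, 15517 of 25908 and 14107 of 25702 in the interactions at 50, 100 and 200 mg/kg. In the interaction with irradiation it called 12208 of 26875 genes. The members' medians became 0.86 (50 mg/kg Day 0), -0.15 (200 mg/kg Day 0), 0.50 (vehicle Day 1 against Day 0), -0.27 (50 mg/kg Day 1), -1.06 (100 mg/kg Day 1), -1.33 (200 mg/kg Day 1), -1.71 (TBI against vehicle Day 1) and -0.51 (TBI against 200 mg/kg Day 1). Single members turned in the same way: Rpl10 -0.55, Rpl38 -0.41, Rpl39 -0.59 and Rplp2 -0.075 at 200 mg/kg on Day 1, Rpl38 -0.31, Rpl39 -0.42 and Rplp2 -0.019 at 100 mg/kg, and Rplp2 in the interactions at 200 mg/kg (-0.14), with irradiation (0.033) and at 100 mg/kg (-0.11). At 50 mg/kg on Day 0, DESeq2 size factors, filterByExpr, the DESeq2 Wald test and an odd or even animal number as a term each gave 1 call, and the fit of all 60 mice gave 1 call between the irradiated groups. The cause was not tested.

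Leaving out each mouse gave 13 to 17 calls on Day 1 after 200 mg/kg, 13 to 16 after 100 mg/kg, 50 to 55 for TBI against vehicle Day 1, and 0 to 1 at 50 mg/kg on Day 0. Without animal 43, 1 of the calls at 200 mg/kg was lower. Of all genes 10380 to 11845 (of 23066 to 23429), 10905 to 11971 (of 23271 to 23617), 7852 to 9693 (of 24395 to 25025) and 818 to 1413 (of 23984 to 24325) were called, in either direction. Leaving out the mice over 1000 CPM of Alb and leaving out each mouse for the median were chosen after seeing the data. Over 146 single-member results, 860 alternative values kept side and direction, 56 lost and 24 gained the call, and 10 turned.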
